A study of Mus musculus with 12 samples.

Results

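The metabotropic glutamate receptor genes Grm2, Grm3, Grm4, Grm5, Grm7 and Grm8 were followed through the m6A peak lists of the mouse hippocampus. Their peaks were taken by the gene name that the authors' annotation gives each peak. The 6 genes held 20 of the 33622 peaks called in WT mice and 17 of the 34935 peaks called in Tyrobp-/- mice, and 1 of the 5640 regions in the table that compares the genotypes. They are 6 of the 17779 genes with a peak in either list. The hippocampi came from male 6-month-old C57BL/6 mice, either Tyrobp-/- mice, which carry a short TALEN-made deletion inside an exon of Tyrobp in every cell, or their WT littermates. No other allele or agent is named for either genotype, and each of the 3 samples of a genotype pooled the tissue of 3 mice. Each sample gave an IP library, from RNA fragments bound by an antibody against m6A, and an input library of the same poly(A) RNA, 12 libraries with 61189368 to 73554506 valid reads each.

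Metabotropic glutamate receptors are G protein-coupled receptors that sense glutamate through a large extracellular domain and adjust synaptic strength over a slower course than the glutamate-gated channels do. Group I receptors, here Grm5, act through Gq and phospholipase C and sit mostly on the postsynaptic side, where they are known for their part in hippocampal long-term depression. Group II receptors (Grm2, Grm3) and group III receptors (Grm4, Grm7, Grm8) act through Gi and Go, lower cyclic AMP and are found largely on presynaptic terminals, with Grm3 also in astrocytes. N6-methyladenosine (m6A) is the most common internal modification of mRNA, is enriched near stop codons and in long internal exons, and affects how long a transcript lasts and how it is translated.

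Each genotype has 1 peak list over its 3 replicates, so each peak has 1 fold enrichment (reads of the IP over reads of the input in that region) per genotype, with no replicate error. No difference below could therefore be tested, and differences are read against the same measure over all peaks. Read counts per peak were not analysed here, so the log10 of the false discovery rate (FDR) of a peak call is the only measure given of how firmly a peak stands. The median peak had a fold enrichment of 5.54 in WT and 5.72 in Tyrobp-/- mice. Tyrobp itself had 0 peaks in both lists, which therefore hold no check of the deletion. Of 8 genes typical of hippocampal neurons, 8 had a peak in WT and 7 in Tyrobp-/- mice (Hpca had none). Of 7 genes of hypothalamic neurons, 4 had a peak in WT and 2 in Tyrobp-/- mice, with no peak of Hcrt, Pmch or Avp in either list. Of 3 genes of cerebellar granule cells, 2 had a peak in WT and 1 in Tyrobp-/- mice, with none of Gabra6, and 5 of 6 microglial, 4 of 4 astrocyte and 4 of 4 oligodendrocyte genes had a peak in both. A listed peak measures neither cell number nor RNA level, so these counts cannot show whether tissue content differed between the genotypes. Over all genes with a WT peak, 10.2% had none in Tyrobp-/- mice. The part of the differences between these marker counts in the results was not tested. In bulk tissue, fewer cells of a type and less RNA per cell cannot be told apart, and a region missing from a list is not thereby shown to be unmethylated.

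All 6 genes had a peak in WT mice, and all but Grm4 had one in Tyrobp-/- mice. Grm5 and Grm8 had 5 peaks each in WT mice, Grm7 had 4, Grm2 had 3, Grm3 had 2 and Grm4 had 1. In Tyrobp-/- mice the counts were 3 for Grm5, 5 for Grm8, 4 for Grm7, 3 for Grm2 and 2 for Grm3. The median gene had 2 peaks in either list, and 6.98% of genes in WT and 7.37% in Tyrobp-/- mice had 5 or more. The fold enrichment of the receptors' peaks ranged from 1.59 to 15.3, with a median of 5.08 in WT and 5.47 in Tyrobp-/- mice, a little below the medians of all peaks. The strongest peak of a gene was 13.0 in Grm5, 11.7 in Grm2 and 11.7 in Grm8 in WT mice, against a median of 8.01 over all genes. Grm7 (6.05), Grm3 (5.28) and Grm4 (1.71) lay below that median. In Tyrobp-/- mice the order was Grm5 (15.3), Grm2 (13.8), Grm8 (13.5), Grm7 (5.72) and Grm3 (4.58), against 8.17 over all genes. Thus Grm5, Grm2 and Grm8 held the highest fold enrichments in both genotypes, followed by Grm7 and then Grm3. The WT value of Grm8 comes from a less firmly called peak of 181 exonic bases (log10 FDR -4.63) without a match in Tyrobp-/- mice. Among the WT peaks of Grm8 with an FDR below 1e-05 the highest was 6.74, near the 6.05 of Grm7. Neighbours in the order such as Grm2 and Grm8 cannot be separated without replicate error.

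**Figure D1:**
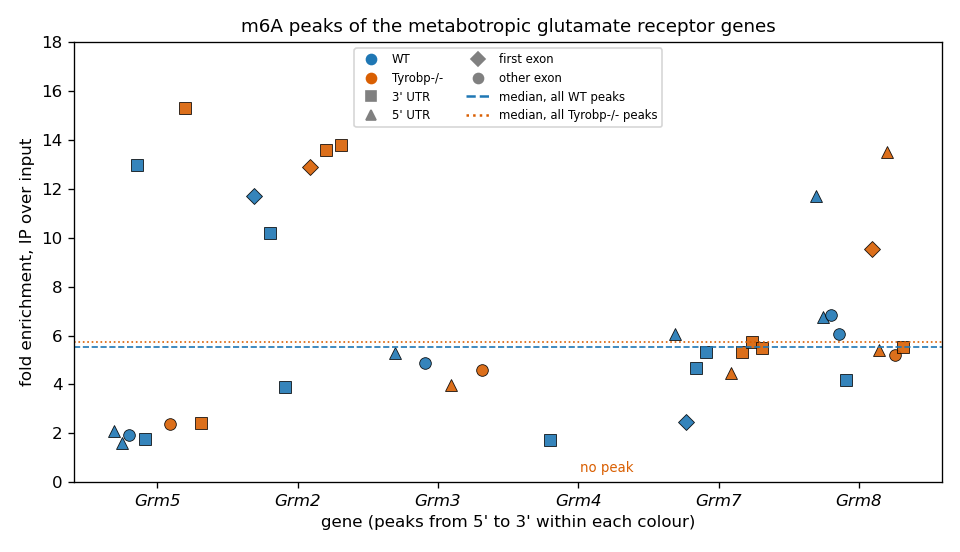
Fold enrichment of IP over input (y axis, linear from 0) of every m6A peak of the 6 genes (x axis), in WT (blue) and Tyrobp-/- mice (orange), 1 point per peak of the genotype's list, with the shape giving the annotation class and the lines the medians of all peaks (5.54 and 5.72). Grm5, Grm2 and Grm8 reach 11.7 or more in both genotypes, while no peak of Grm3, Grm4 or Grm7 exceeds 6.05. Grm8 reaches it in WT mice by a peak with a log10 FDR of -4.63.

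By annotation, 8 of the 20 WT peaks lay in a 3' UTR (40.0%, exact 95% binomial interval 19.1 to 63.9), 6 in a 5' UTR (30.0%), 2 in a first exon and 4 in another exon (20.0%). In Tyrobp-/- mice 8 of 17 lay in a 3' UTR (47.1%, interval 23.0 to 72.2), 4 in a 5' UTR (23.5%), 2 in a first exon and 3 in another exon (17.6%). Over all peaks the 3' UTR held 47.2% in WT and 49.3% in Tyrobp-/- mice and the 5' UTR 18.9% and 17.3%, each inside the interval of the receptors. The binomial intervals cover counting error only, and they treat the peaks as independent although several peaks share a gene. The classes follow the transcript that the annotation chose and are not always those of the main coding transcript, since the 890-base block of Grm7 described below is classed as 3' UTR although the gene goes on for 209 kb past it. The RefSeq genes span 11.6 kb (Grm2) to 922 kb (Grm7), and positions along them were taken with introns included. The longest exonic block lay in the first 10% of the gene for 6 WT and 4 Tyrobp-/- peaks. For 7 WT and 8 Tyrobp-/- peaks it lay in the last 10% or beyond the end, and for 7 and 5 it lay between. The same shares over all peaks were not computed, so no excess at the ends is shown.

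**Figure D2:**
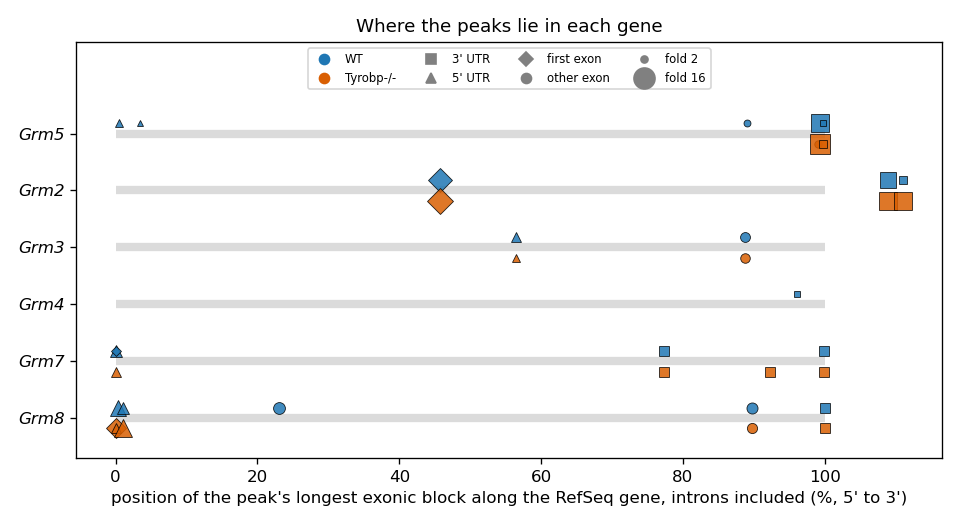
Position of the longest exonic block of each peak along its RefSeq gene from the 5' to the 3' end, introns included (x axis, percent of the gene's span), for the 6 genes (rows), with WT peaks in blue above the gene and Tyrobp-/- peaks in orange below it. Symbol size grows with fold enrichment, shape gives the annotation class, and both 3' peaks of Grm2 lie past 100%, beyond the end of the RefSeq gene.

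Grm5 (ENSMUSG00000049583, chr7:87583981-88135063, plus strand, GRCm38 as all positions here) encodes mGluR5, the Gq-coupled receptor of group I. Its strongest peak lay near the 3' end of the gene, at chr7:88130173-88131791 in WT mice, with a fold enrichment of 13.0. It ran over 1619 bases without a splice junction and was annotated to the 3' UTR. In Tyrobp-/- mice the same stretch was split into 2 peaks, a 1289-base peak at chr7:88130473-88131761 with a fold enrichment of 15.3 and a 121-base piece at chr7:88130173-88130293 with 2.36. The long peak was the most firmly called of the receptors in both genotypes, with an FDR listed as 0 (log10 of minus infinity), and 87.3% of WT and 91.8% of Tyrobp-/- peaks had a lower fold enrichment. A short peak further into the 3' UTR was 1.77 in WT (chr7:88133948-88134068) and 2.41 in Tyrobp-/- mice (chr7:88133918-88134128). The other Grm5 peaks were found in WT mice alone and were weak. They lay in the 5' UTR with 2.08 (chr7:87584498-87586651, 180 exonic bases) and 1.59 (chr7:87596259-87602761, 420 exonic bases), and in an internal exon with 1.94 (chr7:88074581-88074880), with log10 FDR of -5.45, -12.4 and -58.6. A further WT peak inside the gene (chr7:88075120-88130114, 3 blocks), with a fold enrichment of 1.44 over 241 exonic bases, was listed under the small RNA gene Gm24249. It is therefore not counted with Grm5. By the list order described for Grm2 below, it stands in the inferred plus-strand pass, the strand of Grm5, while Gm24249 is a minus-strand gene. Its assignment is thus uncertain.

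Grm2 (ENSMUSG00000023192, chr9:106644534-106656109 in RefSeq, minus strand) encodes mGluR2, a presynaptic Gi/o-coupled autoreceptor. It was the shortest of the 6 genes, and 5 of its 6 peaks over both lists reached 10.2 or more. The 5'-most peak ran over 3 exonic blocks of 345, 838 and 638 bases in WT mice (chr9:106647589-106654183), with a fold enrichment of 11.7, and was 12.9 in Tyrobp-/- mice (chr9:106647589-106654004). The second peak lay at the 3' end with 10.2 in WT (chr9:106643095-106643901) and 13.6 in Tyrobp-/- mice (chr9:106643095-106643930). The 3'-most peak overlapped the second and reached past it, with 3.91 in WT (chr9:106643001-106643564, log10 FDR -4.76) and 13.8 in Tyrobp-/- mice (chr9:106642883-106643564, log10 FDR -10.6). It gave the largest rise in fold enrichment of any matched receptor peak, 3.53-fold (1.82 on the log2 scale), higher than in 96.7% of all matched pairs. The region chr9:106643061-106643564 of Grm2 was also the only receptor entry in the table that compares the genotypes. Thus 1 of 6 receptor genes had an entry there, against 26.1% of all genes with a peak in either list.

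The assignment of the 3'-most of these peaks to Grm2 is uncertain. Both 3' peaks lay beyond the end of Grm2 in RefSeq, by 633 bases in WT for the second and by 970 bases for the 3'-most. The 3'-most peak shared 98.0% of its span in WT and 98.4% in Tyrobp-/- mice with Gm28111, a long noncoding RNA gene (chr9:106640864-106643553), and the second shared 56.9% and 54.9%. Within each chromosome the lists appear to run in 2 passes, inferred from the order of the peaks. The split was placed where agreement with the annotated strand was highest. It puts 89.9% of WT and 90.0% of Tyrobp-/- peaks on the pass of their annotated strand, which is no independent check. The 3'-most peak stands in the inferred plus-strand pass of both lists, opposite to Grm2, while the other 2 Grm2 peaks stand in the minus-strand pass. Reads of Grm2 and of Gm28111 cannot be told apart here.

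Grm3 (ENSMUSG00000003974, chr5:9485236-9725352, minus strand) encodes mGluR3, the other receptor of group II. It had the same 2 peaks in both genotypes, each spliced. The upstream peak, annotated to the 5' UTR, joined blocks of 41, 609 and 247 bases in WT mice (chr5:9570528-9725170) with a fold enrichment of 5.28, and was 3.97 in Tyrobp-/- mice (chr5:9570498-9725170). The downstream peak joined 42 and 736 bases in WT mice (chr5:9511789-9569960) with 4.89, and was 4.58 in Tyrobp-/- mice. Both were lower in Tyrobp-/- mice, to 0.752 and 0.937 of the WT value, which is within the 2-fold range that held 80.6% of all matched pairs. They were firmly called, with a log10 FDR of -250 and -311 in WT and -124 and -227 in Tyrobp-/- mice. Grm3 was the only receptor with a peak in both lists that had no peak annotated to a 3' UTR.

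Grm4 (ENSMUSG00000063239, chr17:27422387-27513826, minus strand) encodes mGluR4, a group III receptor that is most abundant in the cerebellum. A single weak peak was listed for it in WT mice, at its 3' end (chr17:27422775-27426042, 151 exonic bases), with a fold enrichment of 1.71, and 4.79% of WT peaks were lower. It had no peak in Tyrobp-/- mice. Of the genes with a peak in WT mice, 10.2% had none in Tyrobp-/- mice, and Grm4 was 1 of the 6 receptors. This count rests on the gene name given to the peaks. A 2-block peak inside Grm4 was listed in both genotypes under Gm49789, a gene of the opposite strand, with a fold enrichment of 8.17 in WT (chr17:27434540-27438383, blocks totalling 1017 bases) and 7.64 in Tyrobp-/- mice (chr17:27434570-27438323, 927 bases). It stands in the inferred minus-strand pass of both lists, the strand of Grm4, with a log10 FDR of -82.4 and -70.3. With it counted under Grm4, the gene would have its strongest peak in both genotypes and at nearly the same level.

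Grm7 (ENSMUSG00000056755, chr6:110645349-111567230, plus strand) encodes mGluR7, a low-affinity receptor of the presynaptic active zone, and is the longest of the 6 genes. Its peaks were even, between 4.45 and 6.05 apart from 1 weak peak. The 5' UTR peak was 6.05 in WT (chr6:110645581-110645969) and 4.45 in Tyrobp-/- mice (chr6:110645581-110645939). The peak with the 890-base block (chr6:111358191-111495689 in WT mice) was 4.67 and 5.31, and the peak at the 3' end (chr6:111502272-111566513 in WT mice) was 5.34 and 5.47. These 3 peaks had nearly the same edges in both genotypes and differed by at most 0.44 on the log2 scale in size. A first-exon peak of 2.45 was listed in WT mice alone (chr6:110646089-110646298, log10 FDR -8.87), and a 479-base peak of 5.72 in Tyrobp-/- mice alone (chr6:111496257-111496735, log10 FDR -3.96).

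Grm8 (ENSMUSG00000024211, chr6:27275121-28135146, minus strand) encodes mGluR8, a presynaptic group III receptor, and had the most varied peaks at its 5' end. The 661-base 5' UTR peak at chr6:28125679-28126339 had the same edges in both genotypes, with a fold enrichment of 6.74 in WT and 13.5 in Tyrobp-/- mice. That is a 2.0-fold rise, at the threshold used here, and the rounding of the listed values allows 1.994 to 2.012. The internal-exon peak was 6.07 in WT (chr6:27285974-27363916) and 5.20 in Tyrobp-/- mice (chr6:27363107-27363976), and the 3' UTR peak was 4.16 (chr6:27275359-27285884) and 5.52 (chr6:27275179-27285824). Peaks listed in 1 genotype alone were less firmly called. In WT mice these were a 5' UTR peak of 11.7 (chr6:28126399-28132180, 181 exonic bases, log10 FDR -4.63) and an internal-exon peak of 6.84 (chr6:27937104-27937644, log10 FDR -0.56). In Tyrobp-/- mice they were a first-exon peak of 9.53 (chr6:28134968-28135118, log10 FDR -1.68) and a 5' UTR peak of 5.40 (chr6:28134309-28134489, log10 FDR -2.09).

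Of the 4 Grm8 peaks found in 1 genotype alone, 3 touch windows around different transcription starts of the gene, and the internal-exon peak of WT mice touches none. The stretches of at most 30 bases that they share with the start windows are shown for that reason. RefSeq gives windows around transcription starts (GRCm38.p6) for 4 of the 6 receptor genes, Grm2, Grm3, Grm7 and Grm8, 7 windows in all. The stretches below are written 5' to 3' on the minus strand, in lower case, and capitals would mark GGAC, the core of the most frequent m6A sequence, searched on the transcript strand only.
Grm8, WT peak, chr6:28126399-28126426: gaagaattctgctacagggctgaattca
Grm8, Tyrobp-/- peak, chr6:28134968-28135118, its part at chr6:28135097-28135118: ggtggctcggccggctcagccc
The first stretch starts at the first base of a RefSeq start and has 28 bases, the second has 22 bases. Neither holds GGAC, and the same position of all 32851 RefSeq start windows holds it in 10.3% for the first and 8.46% for the second. The window shared with the 5' UTR peak of Grm7 (67 bases) and with the second Tyrobp-/- peak of Grm8 (118 bases) held 0 matches as well, against 23.5% and 36.2% of all windows. The remaining bases of these peaks were not searched.

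A feature of Grm2, Grm3, Grm7 and Grm8, noticed after the values were seen, was a long exonic block inside the gene. It measured 838 bases in Grm2, 736 bases in Grm3 and 890 bases in Grm7 in both genotypes, and 832 bases in WT and 870 bases in Tyrobp-/- mice in Grm8. The single peak listed for Grm4 had no block longer than 144 bases, while the peak inside Grm4 that is listed under Gm49789 held one of 929 bases in WT and 899 bases in Tyrobp-/- mice. With a cut of 700 bases, 6 of 20 WT receptor peaks held a long block, against 17.0% of all WT peaks. In Tyrobp-/- mice 6 of 17 did, against 15.9% of all peaks. These counts include the long peak of Grm5 and the second peak of Grm2, and the difference was not tested. Of the 37 receptor peaks, 17 ran over at least 1 splice junction, with a peak listed in both genotypes counted in each. The share over all peaks was not computed.

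To compare the genotypes, each WT peak was matched with every Tyrobp-/- peak of the same gene whose span it overlapped. Of the receptor peaks, 13 of 20 in WT (65.0%, against 78.0% of all WT peaks) and 14 of 17 in Tyrobp-/- mice (82.4%, against 75.8% of all Tyrobp-/- peaks) had a match. The 7 WT peaks without a match had a median fold enrichment of 2.08, below the 4.64 of all unmatched WT peaks, and belonged to Grm5 (3), Grm8 (2), Grm7 (1) and Grm4 (1). The 3 Tyrobp-/- peaks without one, of Grm8 and Grm7, ranged from 5.40 to 9.53, against a median of 4.45 over all unmatched Tyrobp-/- peaks. An FDR below 1e-05 was missed by 2 of the 7 WT peaks, against 76.9% of all unmatched WT peaks, and by 3 of the 3 Tyrobp-/- peaks, against 76.4% of all unmatched Tyrobp-/- peaks.

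The 16 receptor pairs had a median difference of 0.21 on the log2 scale (Tyrobp-/- minus WT), against 0.03 over all 32928 pairs, and lay between -2.46 and 1.82. The difference was above 0 in 11 pairs and below 0 in 5. Past 2-fold, 3 receptor pairs were higher in Tyrobp-/- mice, where 9.87% of all pairs were, and 1 was lower, where 9.53% were. The 3 higher pairs were the Grm8 5' UTR peak and 2 pairs of the 3'-most WT peak of Grm2, which overlapped both 3' peaks of Tyrobp-/- mice (3.48-fold and 3.53-fold). The lower pair set the 1619-base WT peak of Grm5 against the 121-base piece split from it in Tyrobp-/- mice, which covers 7.47% of the WT peak. When only pairs that were each other's best match by shared exonic bases were kept, 13 receptor pairs remained, with a median of 0.19, 2 higher and 0 lower past 2-fold, against 6.85% and 6.09% of 24546 pairs. Among those 13, the long 3' UTR peak of Grm5 differed by 0.24, the first peaks of Grm2 by 0.14 and the 3' end peaks of Grm7 by 0.03 on the log2 scale. With the 3'-most Grm2 peak left out, 1 pair, of Grm8, was higher past 2-fold.

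**Figure D3:**
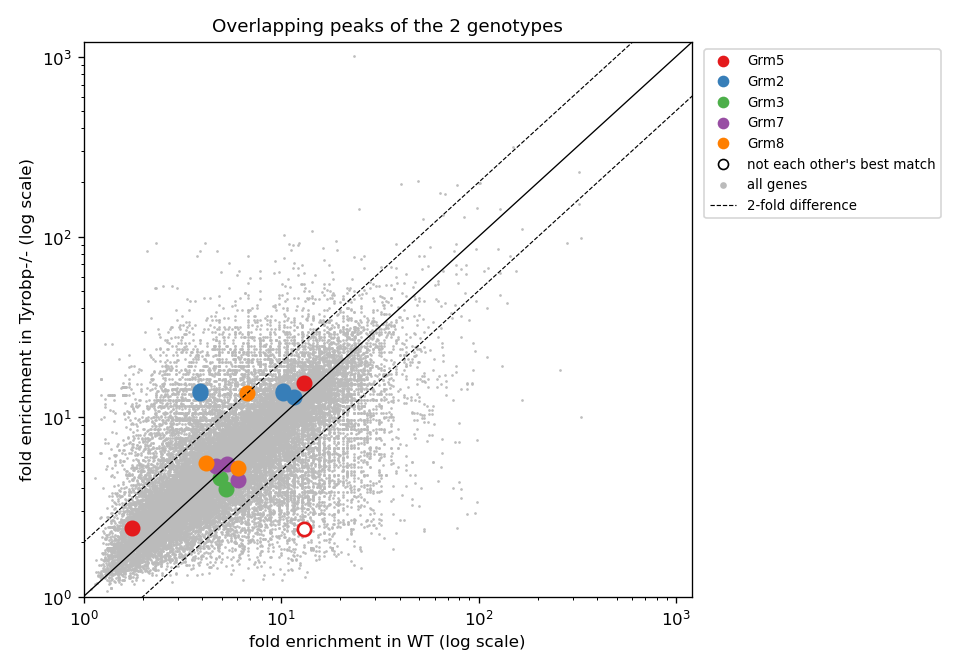
Fold enrichment in WT (x axis) against Tyrobp-/- mice (y axis), both on log scales, for each pair of overlapping peaks of the same gene, with all 32928 pairs in grey, receptor pairs in colour, open circles for receptor pairs that are not each other's best match (those of Grm2 are hidden by its filled circles), the diagonal solid and 2-fold differences dashed. Most receptor pairs lie near the diagonal, the Grm8 5' UTR peak sits on the upper 2-fold line, and the 3'-most Grm2 peak (3.91 in WT) lies above it.

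The receptors were set beside the other glutamate and GABA receptor genes with a peak in either list. The median of the strongest peaks was 8.88 in WT over the 6 metabotropic receptors and 13.5 in Tyrobp-/- mice over the 5 with a peak. It was 12.7 and 12.1 over 8 AMPA and kainate receptor genes, 10.7 and 14.0 over 7 NMDA receptor genes and 7.48 and 7.73 over 16 GABA receptor genes. Over the 5 metabotropic receptors with a peak in both genotypes it was 11.7 in WT and 13.5 in Tyrobp-/- mice. Grm8 enters these WT medians with 11.7, from its peak with a log10 FDR of -4.63. At an FDR below 1e-05 it would enter with 6.74, so the WT medians depend on that call. By the gene name given to the peaks, Grm4 was the only one of these 37 genes with a peak in 1 list alone. The peak inside Grm4 listed under Gm49789 was in both lists, with 8.17 in WT and 7.64 in Tyrobp-/- mice. Over the strongest peaks in WT and Tyrobp-/- mice, the nearest to Grm5 among 33 ionotropic glutamate and GABA receptor genes with a peak in both genotypes, a wider set than the 3 families above, was Grid1 (12 and 15.1, a distance of 0.12 on the log2 scale), and to Grm2 and Grm8 it was Grin2b (10.7 and 14.0, distances of 0.13 and 0.14). To Grm3 it was Gabrg1 (5.37 and 5.18, distance 0.18). These likenesses rest on 1 value per genotype. For Grm8 the WT and Tyrobp-/- values come from different peaks. The Tyrobp-/- value of Grm2 comes from its 3'-most peak, whose assignment is uncertain.

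**Figure D4:**
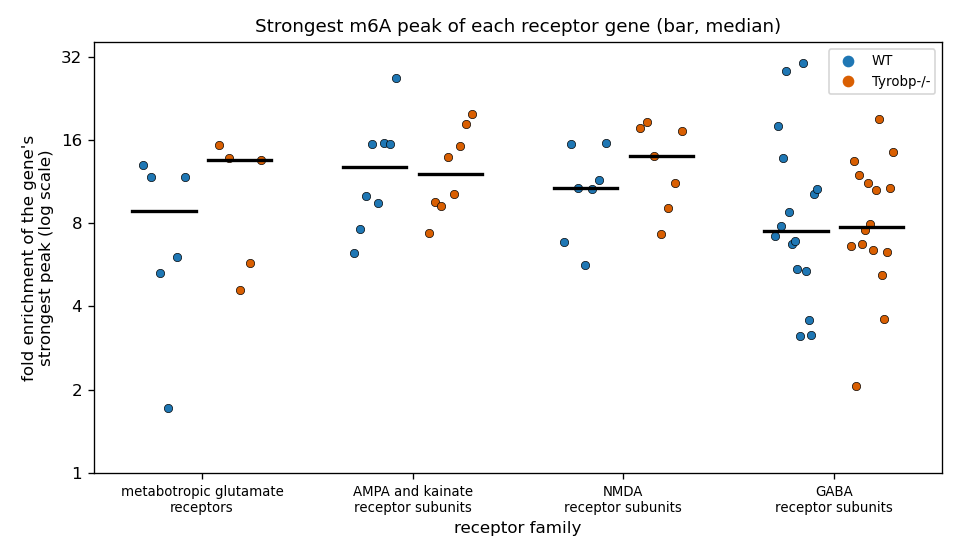
Fold enrichment of the strongest peak of each gene (y axis, log scale) in 4 receptor families (x axis), in WT (blue) and Tyrobp-/- mice (orange), 1 point per gene and a bar at the family's median. The metabotropic receptors spread from 1.71 (Grm4, WT) to 15.3 (Grm5, Tyrobp-/-) and lie within the range of the other families except for Grm4.

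The partners through which these receptors act were followed by a list of 38 genes. Of these, 31 had a peak in WT and 33 in Tyrobp-/- mice, 30 of them in both, with 86 and 78 peaks. The 72 overlapping pairs had a median difference of 0.07 on the log2 scale, with 5 pairs higher in Tyrobp-/- mice past 2-fold and 1 lower, shares below the 9.87% and 9.53% of all pairs. Among the G proteins, 4 of 6 genes had a WT peak. The first-exon peak of Gnao1, the alpha subunit of Go, was 3.58 in WT mice (chr8:93812554-93812734). It was 20.0 in Tyrobp-/- mice, over a longer span (chr8:93812464-93812943). Among 6 adenylyl cyclases, all with peaks in both genotypes, a 3' UTR peak of the calcium-stimulated Adcy8 was 4.73 and 30.5. A pair of Adcy9 was 3.00 and 8.15, a short WT peak (chr16:4287529-4287589) against a longer Tyrobp-/- peak (chr16:4287529-4288873). Another WT peak of Adcy9, of 7.47, was paired with the Tyrobp-/- value of 8.15 as well. Among 10 genes of the phospholipase C arm, Itpr1, the IP3 receptor of the endoplasmic reticulum, had the strongest peak of the list, a 5' UTR peak of 38.3 in WT and 91.4 in Tyrobp-/- mice. Among 9 scaffolds and synaptic partners, a peak of Grasp, which binds group I receptors, was 4.50 (chr15:101224116-101225038) and 18.6 (chr15:101221844-101225038). Grasp had 3 peaks in WT and 1 in Tyrobp-/- mice, so the pair does not compare equal spans. For Frmpd4, 1 pair was 9.35 (chrX:167473912-167479432) and 3.33 (chrX:167478654-167479043), a short piece of the WT span. The strongest Tyrobp-/- peak of Frmpd4 was 9.77. Of these pairs past 2-fold, those of Adcy9 and Frmpd4 were not each other's best match. The FDR of the partners' peaks is not given here, so how firmly these peaks stand is left unstated. Among 7 regulators and effectors, 0 pairs passed 2-fold. The cation channel Trpc5, in that group, had a strongest peak of 27.2 in WT and 21.6 in Tyrobp-/- mice, and Pick1, a scaffold of Grm7, 19.4 and 19.5. Of the 38 genes, 10 had a region in the table that compares the genotypes, near the 26.1% of all genes with a peak in either list.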

How the data were processed

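Hippocampal MeRIP-seq of WT and Tyrobp-/- mice was used, with 3 IP and 3 input libraries per genotype. The submitters' notes name fastp, HISAT2, HOMER and ChIPseeker. The authors mapped reads to the mouse genome (version v96, whose gene positions match GRCm38) and called peaks with exomePeak. They give 1 list per genotype, and how the replicates were combined is not given in the sources used here. The authors deposited counts of valid reads per library (61189368 to 73554506) and, per peak, the p-value of IP over input (in a column headed score), a ratio (fold enrichment) and the log10 FDR. Of the deposited table that compares the genotypes, positions and gene names were used. Its fold changes, p-values and FDR of Tyrobp-/- against WT hold the authors' comparison and were not used.

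Peaks were matched by gene ID when spans overlapped by at least 1 base, and log2 fold enrichment was subtracted (Tyrobp-/- minus WT). A 2-fold difference was the threshold. No test was run, since 1 list per genotype leaves no replicate error and the number of reads behind a peak is unknown. Shares carry exact 95% binomial intervals (Clopper-Pearson). Genes named are the 6 receptors, the listed partners with a pair past 2-fold, the 3 partners with the strongest WT peak, and the nearest other receptor gene to each receptor with a peak in both genotypes, which for Grm7 is not reported here. The members, lists and thresholds were chosen with earlier results of these data known. RefSeq (GRCm38.p6) gave gene spans and start windows, and of 15873 genes matched by symbol 99.7% overlapped in position. The motif search planned over whole peaks was not run for want of a genome sequence. The matching was tested on simulated peaks. Scripts ran in Python 3.11.15 with pandas 2.3.3, numpy 2.4.6, matplotlib 3.10.9 and scipy 1.17.1.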

Additional observations from a re-analysis of the deposited data

How the results depend on the processing

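Of 41 alternative values over 9 results, 34 stayed within 1.5 times the reported value, or for shares within its interval, 7 moved and 0 reversed. With a fold enrichment of at least 4 required, 13 WT peaks were left in place of 20. The 3 pairs higher in Tyrobp-/- mice past 2-fold became 1 with 1 pair per gene, 1 at an FDR below 1e-05 and, chosen after seeing the data, 1 without the Grm2 peak over Gm28111. Centring on the median of all pairs left 2, because the Grm8 pair then fell under 2-fold. The 1 lower pair, of Grm5, became 0 with a reciprocal overlap of 50%, with 1 pair per gene and, chosen after seeing the data, among mutual best pairs. The median difference of the pairs stayed between 0.14 and 0.32 on the log2 scale. No paired analysis was possible because each genotype has 1 peak list, whose peaks carry no replicate numbers, and no replicate could be left out for the same reason.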
